A study of Mus musculus with 2 samples.

Results

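Kinesins, centromere proteins and spindle regulators were followed as a set of 68 genes among the 12707 genes of a table of tumour-cell RNA. Members were taken by a rule on gene names: every numbered kinesin (Kif), every gene named Cenp with a single letter from a to w (which leaves out CENP-C, listed as Cenpc1), and a list of spindle checkpoint, Aurora, polo-like, Ndc80-complex, passenger-complex and proliferation genes. The rule matches 81 protein-coding symbols of GENCODE M21. The 13 that the table does not list under those names were not analysed here. RNA came from live CD45-negative cells sorted from Py8119 tumours, a mouse mammary tumour line derived from the MMTV-PyMT model. One group is the library from tumours in hosts with wild-type Mtdh (the wild-type-host library) and the other is the library from tumours in hosts in which Mtdh is knocked out (the knockout-host library), and both groups carried tumour cells labelled wild type for Mtdh. The labels give neither the number, sex, age or strain of the hosts nor the way the gene was inactivated, and the series design speaks of paired samples without naming the pairs. With 1 library per host genotype, no difference has a replicate check, and every value describes these libraries rather than the genotypes.

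Kinesins are motors that walk along microtubules or take them apart. Several of them build the mitotic spindle and move chromosomes, and others carry vesicles, organelles and ciliary cargo in non-dividing cells as well. The centromere is marked by the histone variant CENP-A, on which a constitutive network of CENP proteins assembles and holds the outer kinetochore, whose Ndc80 complex binds microtubules. Until every kinetochore is attached, the spindle checkpoint restrains CDC20, the activator of the anaphase-promoting complex, while the chromosomal passenger complex and polo-like kinase correct faulty attachments. Most genes of this machinery are transcribed late in the cell cycle, and many of their promoters hold a CHR element (cell cycle genes homology region) bound by the DREAM and MuvB complexes, often with CCAAT boxes bound by NF-Y. High levels are a mark of proliferating tumours.

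The promoters show how the set divides by this sequence. RefSeq promoters of GRCm38.p6, from 250 bases before to 50 bases after each start site, matched 60 of the 68 members by symbol. The letters searched were TTTGAA or TTCGAA for the CHR element and CCAAT for the NF-Y box, each on both strands. CHR letters were found for 30 of the 60 members (50%), against 17.2% of the 10034 genes of the deposited table with a promoter entry and 19.2% of all 32851 promoters. They were found for 9 of 10 mitotic kinesins and 5 of 6 checkpoint genes, but for 2 of 13 other kinesins. CCAAT letters were found for 35 members (58.3%), against 43.5% of the genes of the deposited table, and 37.4% of all promoters held them. Both were found for 26 members (43.3%), against 8.55% of those genes. Of 38 CHR matches in the first listed promoter of each member, 26 began between 50 bases before and 50 bases after the start. Positions were not taken for other genes, so whether this placing is particular to the members was not tested. The following stretches are the 200 bases before the start site, 5′ to 3′ in the gene's direction, with CHR and CCAAT letters in capitals, none of which overlap. Cdc20, Cenpm, Kif11 and Top2a stand for members with CHR letters in this stretch, the first pair with low reads in the knockout-host library and the second with ratios closer to 1, and Cenpb and Kif7 for low members with neither. The stretches lie at chr4:118437344-118437543 (minus strand), chr15:82244337-82244536 (minus), chr19:37376182-37376381 (plus), chr11:99024190-99024389 (minus), chr2:131180068-131180267 (minus) and chr7:79715708-79715907 (minus), in that order.
Cdc20: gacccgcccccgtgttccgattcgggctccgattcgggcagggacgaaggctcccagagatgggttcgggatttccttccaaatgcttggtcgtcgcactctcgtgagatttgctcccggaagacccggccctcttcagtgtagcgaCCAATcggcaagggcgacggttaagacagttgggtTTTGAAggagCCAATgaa
Cenpm: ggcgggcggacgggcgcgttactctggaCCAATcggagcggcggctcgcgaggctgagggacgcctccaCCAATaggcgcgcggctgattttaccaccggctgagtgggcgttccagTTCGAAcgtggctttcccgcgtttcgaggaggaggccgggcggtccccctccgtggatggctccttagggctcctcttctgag
Kif11: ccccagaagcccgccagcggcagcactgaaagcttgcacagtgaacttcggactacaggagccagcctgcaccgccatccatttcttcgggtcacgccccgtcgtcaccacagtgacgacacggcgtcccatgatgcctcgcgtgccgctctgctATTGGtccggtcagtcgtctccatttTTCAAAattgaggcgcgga
Top2a: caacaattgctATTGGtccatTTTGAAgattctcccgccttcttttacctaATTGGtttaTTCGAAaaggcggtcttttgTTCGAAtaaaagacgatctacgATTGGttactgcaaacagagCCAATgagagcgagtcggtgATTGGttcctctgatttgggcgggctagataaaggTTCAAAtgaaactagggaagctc
Cenpb: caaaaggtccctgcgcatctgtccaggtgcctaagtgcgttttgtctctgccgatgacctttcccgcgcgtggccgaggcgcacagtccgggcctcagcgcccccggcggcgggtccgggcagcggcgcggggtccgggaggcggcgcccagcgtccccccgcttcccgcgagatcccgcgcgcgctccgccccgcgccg
Kif7: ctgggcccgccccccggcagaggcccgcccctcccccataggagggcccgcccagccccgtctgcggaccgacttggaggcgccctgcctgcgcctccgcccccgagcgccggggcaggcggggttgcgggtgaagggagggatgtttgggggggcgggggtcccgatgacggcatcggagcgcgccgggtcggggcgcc

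**Figure D1:**
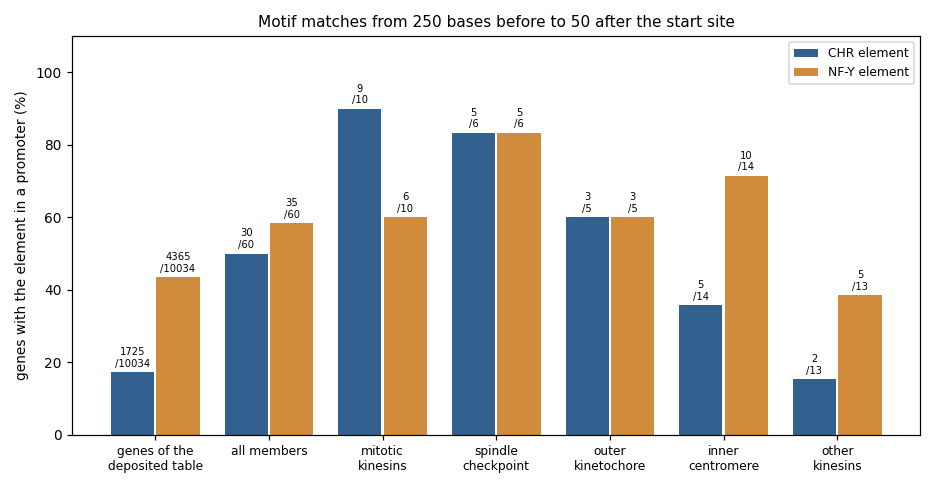
Share of genes (percent, y axis) with the CHR element (blue) or the NF-Y element (orange) in at least 1 RefSeq promoter, for the genes of the deposited table, all matched members and 5 role groups. Numbers above the bars are genes with a match over genes with a promoter entry; the mitotic kinesins reach 9 of 10 for the CHR element and the other kinesins 2 of 13.

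Reads were recovered from the deposited values, 26069375 in the wild-type-host library and 23381849 in the knockout-host library. The members took 0.437% of the reads in the first and 0.392% in the second. The tumour-line genes Vim, Krt8, Krt18, S100a4 and Lgals1 summed to 3807 and 3526 reads per 1000000 recovered reads (RPM). Vim, at 82646 and 67960 reads, made up most of this sum, and the genes went both ways. Krt8 (3172 and 4050 reads) and Krt18 (1659 and 2339) lay above 0, and Vim, S100a4 (5053 and 4285) and Lgals1 (6710 and 3810) below. The 7 listed pan-leukocyte genes summed to 18.6 and 21.0 RPM, with Ptprc, which encodes CD45, at 46 and 64 reads. Stromal markers differed between the libraries. The 5 listed pericyte genes summed to 425.3 and 91.8 RPM, and all 4 of them with 100 reads or more were 2-fold lower in the knockout-host library. Pdgfrb, at 9206 and 1691 reads, made up most of the pericyte sum. Which cells these Pdgfrb reads came from was not tested. The 5 listed fibroblast genes summed to 317.2 and 257.8 RPM. Pdgfra, at 5834 and 5056 reads, made up most of the fibroblast sum, while Dcn was at 784 and 158 and Dpt at 322 and 44, and all 4 fibroblast genes with 100 reads or more lay below 0, with a median log2 ratio of -1.37. The pericyte gene Cspg4 was listed at 190 and 0 reads. Listed endothelial genes went both ways, with Cdh5 at 1 and 146 reads and Plvap at 348 and 58, and summed to 18.3 and 14.2 RPM. Those of the other lists summed to low levels: neurone and Schwann cell genes to 3.72 and 10.2 RPM and the ciliated-cell gene Ccdc39 to 2.07 and 0 RPM. Their part in the results was not tested. In RNA from sorted cells, fewer dividing cells and less RNA per dividing cell cannot be told apart.

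Most members were slightly lower in the knockout-host library, and 11 of the 14 that differed by 2-fold had under 1000 reads over both libraries. Ratios are those of RPM, knockout host over wild-type host, for members with 100 reads or more over both libraries. Of 66 such members, 12 were 2-fold or more lower (18.2%), where 12.0% of all 10813 genes with that depth were. Only Aurkb and Cdca8 were 2-fold or more higher (3.03%), against 8.90% of all genes. The median log2 ratio was -0.25 over the members, with quartiles of -0.71 and 0.14, and -0.06 over all genes, with quartiles of -0.49 and 0.33. Of the members, 43 lay below 0 (65.2%), as did 54.5% of all genes.

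Depth sets how much these counts can carry. With 100 to under 300 reads, 4 of 9 members were 2-fold lower and 1 higher, where 32.5% of all genes in that range were lower and 27.5% higher. With 300 to under 1000 reads, 5 of 17 members were lower and 1 higher, against 20.1% and 12.9% of all genes. With 1000 to under 3000 reads, 3 of 25 were lower (Hmmr, Cenpb and Kif4), against 7.26%, and none was higher, against 4.05%. None of the 15 members with 3000 reads or more differed by 2-fold in either direction, and of all genes at that depth 1.16% were lower and 1.85% higher. Counting intervals (95%, exact conditional binomial) are given beside the ratios. They cover counting error only, because 1 library per group holds no spread between libraries. Reads copied by PCR were not counted by molecular identifier, so the intervals may be too narrow even for counting error. All 14 members counted as 2-fold different have an interval that excludes a ratio of 1, but so many low-read genes differ by 2-fold between these libraries that the interval is no measure of the spread between libraries.

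**Figure D2:**
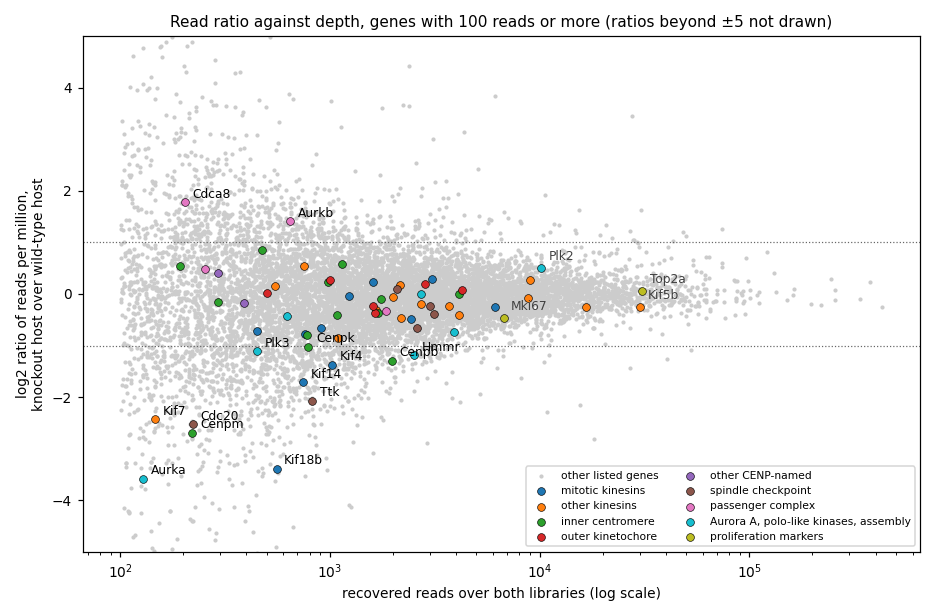
Log2 ratio of RPM, knockout host over wild-type host (y axis), against recovered reads over both libraries (x axis, log scale) for genes with 100 reads or more: members are coloured by role and other genes are grey. The dotted lines mark 2-fold; the 14 members beyond them carry their names and all have under 3000 reads.

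Most of the listed mitotic kinesins had a ratio under 1, with the plus-end motor Kif18b the farthest. Of the 11 members, 3 were 2-fold lower and none higher, and 9 lay below 0, against 12.0%, 8.90% and 54.5% of all genes. The 3 have 300 to 3000 reads, where 20.1% (under 1000) and 7.26% of all genes were lower. The median log2 ratio was -0.66. Their summed level was 426.9 RPM in the wild-type-host library and 334.2 RPM in the other, a ratio of 0.783.

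Kif18b, a kinesin-8 that works at growing ends of astral microtubules, had 513 reads in the wild-type-host library and 44 in the knockout-host library. This is 10.5-fold lower (95% counting interval 7.68 to 14.6). Its relative Kif18a, which dampens chromosome movement at metaphase, had 578.9 and 328.6 reads, a ratio of 0.633. The kinesin-8 genes therefore differed in size but not in side.

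Kif14, a kinesin-3 of the midbody that is needed for cytokinesis, had 586 and 160 reads and was 3.28-fold lower (2.75 to 3.94). Kif4, the chromokinesin that shortens the overlap at the spindle midzone, had 758.2 and 262 reads and was 2.60-fold lower (2.25 to 2.998). Its reads in the wild-type-host library were not whole, and its span overlaps Pdzd11 on the opposite strand.

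Kif11, the kinesin-5 that pushes the spindle poles apart, was the most abundant mitotic kinesin by reads, with 3518 and 2634. Its ratio was 0.835 (0.793 to 0.878). Kif15, which can take over part of its work, had 1490 and 958 reads, a ratio of 0.717. Kif2c, a microtubule depolymerase of the centromere, was at 498 and 259 reads (0.580), and Kif22, a chromokinesin, at 291 and 158 (0.605). These genes sat on the lower side without reaching 2-fold.

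Of the kinesin-6 genes, which act at the spindle midzone during cytokinesis, Kif20a and Kif23 lay slightly above a ratio of 1 and Kif20b close to 1. Kif20a had 1454 and 1605 reads, a ratio of 1.23 (1.15 to 1.32). Kif23, the motor of the centralspindlin complex, had 781 and 825.3 reads, a ratio of 1.18 (1.07 to 1.30), and Kif20b had 661 and 579, a ratio of 0.977 (0.872 to 1.09). Kif20a overlaps Cdc23 on the opposite strand by 2327 bases, and neither gene has whole reads, which leaves their shares uncertain. The reads of Kif23 in the knockout-host library were not whole either.

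**Figure D3:**
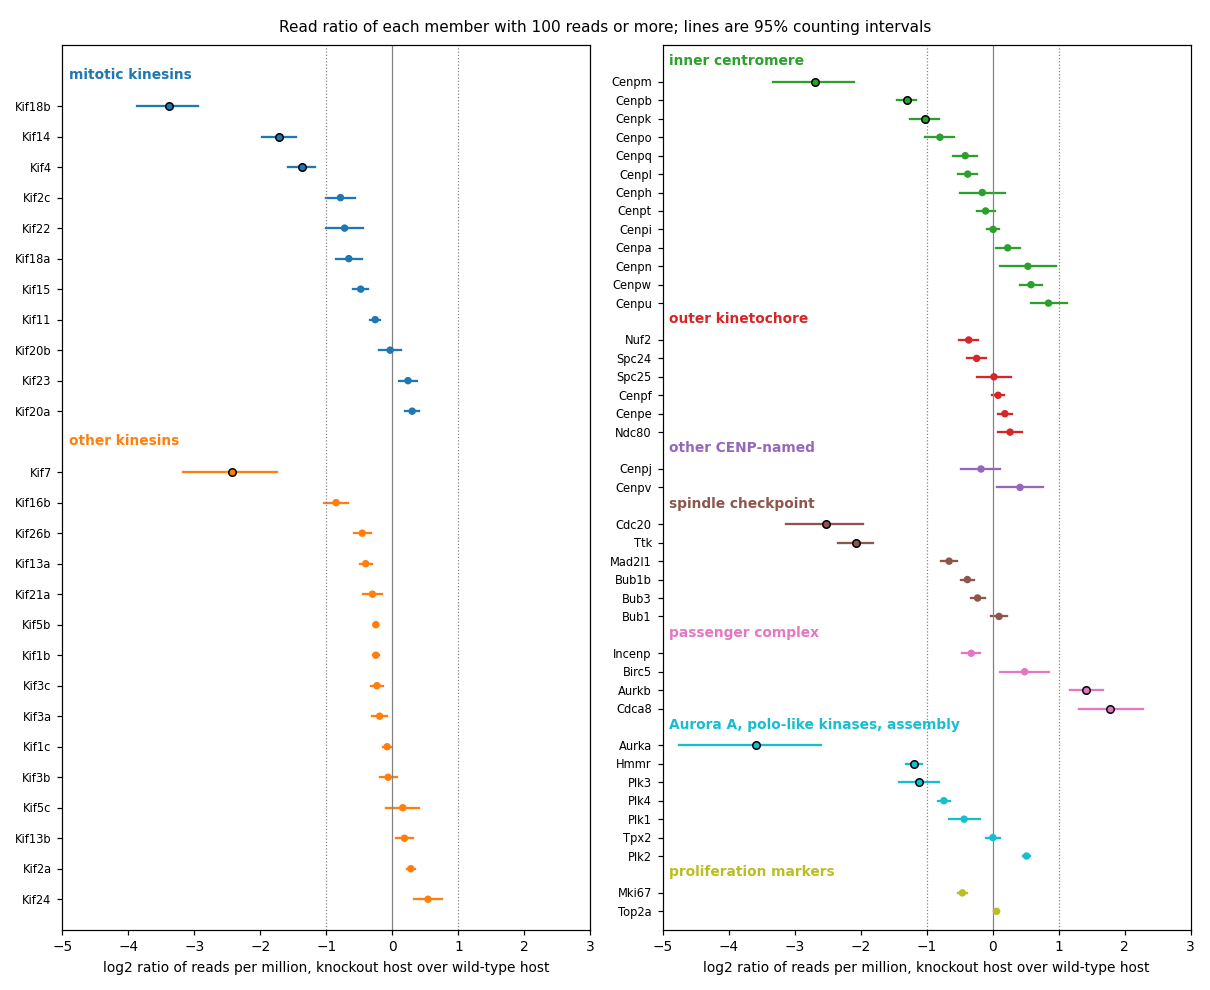
Log2 ratio of RPM, knockout host over wild-type host (x axis), for the 66 members with 100 reads or more, grouped by role; lines are 95% counting intervals and dotted lines mark 2-fold. Dots with a black edge are the 14 members counted as 2-fold different: Aurkb and Cdca8 on the right and 12 on the left, Aurka and Kif18b farthest.

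The other kinesins, motors of transport, cilia and signalling, were closer to equal. Of 16 listed, 15 had 100 reads or more. Of these, 1 was 2-fold lower, none was higher and 11 lay below 0, against 12.0%, 8.90% and 54.5% of all genes. The median log2 ratio was -0.23. Kif7, a regulator of Hedgehog signalling at the cilium tip, was the exception, with 126 and 21 reads, 5.38-fold lower (3.37 to 8.996) at a low depth. Kif5b, the ubiquitous heavy chain of conventional kinesin, had 17257 and 13008 reads, a ratio of 0.840 (0.821 to 0.860). Kif1b, which carries synaptic vesicle precursors and mitochondria, had 9441 and 7121 reads, at 0.841. Both abundant motors were therefore slightly lower.

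The kinesin-2 motors, which include those of intraflagellar transport, lay close together. Kif3a had 1526 and 1197 reads (0.875), Kif3b 1074 and 921 (0.956) and Kif3c 2109 and 1608 (0.850). Of the kinesin-3 cargo motors, Kif1c was at 4787 and 4062 reads (0.946), Kif13a at 2471 and 1674 (0.755), Kif13b at 1072 and 1091 (1.13) and the endosome motor Kif16b at 733 and 364 (0.554). Their ratios spread on both sides of 1, with Kif16b nearest to 2-fold.

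The kinesin-4 relatives Kif21a and Kif21b, which limit microtubule growth, were at 961 and 699 reads and at 32 and 21 reads. Kif26b, an atypical kinesin of mesenchymal and developing tissue, had 1316 and 860 reads (0.729), and Kif5c, a neuronal heavy chain, 273 in each library. On the higher side were the depolymerase Kif2a, at 4304 and 4685 reads (1.21, interval 1.16 to 1.27), and the centriole protein Kif24, at 327.5 and 426.9 (1.45, interval 1.25 to 1.68). Both of these have reads that are not whole.

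At the inner centromere the members went both ways. Of 14 listed, 13 had 100 reads or more. Of these, 3 were 2-fold lower and none was higher, against 12.0% and 8.90% of all genes. The median log2 ratio was -0.16. Cenpa, the centromeric histone itself, had 477.9 and 501.8 reads, a ratio of 1.17 (1.03 to 1.33). Cenpb, which binds a short box in satellite DNA, had 1447 and 527 reads and was 2.46-fold lower (2.23 to 2.73). In the reference annotation its exons fill its whole span, so none of its reads can come from introns. Cenpm had 194 and 27 reads, 6.44-fold lower (4.29 to 10.03), and Cenpk 548 and 241, 2.04-fold lower (1.75 to 2.38).

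Among proteins of the constitutive network, subunits that bind each other did not always lie on the same side of 1, though the intervals of Cenph, Cenpi and Cenpt span 1. Cenpm, Cenpk, Cenph and Cenpi form 1 subcomplex: Cenph had 162.9 and 131 reads (0.897) and Cenpi 2162 and 1949 (1.01, interval 0.945 to 1.07). Cenpo, Cenpp, Cenpq and Cenpu belong to another. Cenpo had 516 and 266 reads (0.575) and Cenpq 644 and 433 (0.750), while Cenpu had 182.4 and 294.1 (1.80, interval 1.49 to 2.18). Cenpp was listed at 0 and at 18.6 reads. Cenpt and Cenpw, histone-fold partners, were at 952 and 792.9 reads (0.929, interval 0.844 to 1.02) and at 485.3 and 651 reads (1.496, interval 1.33 to 1.69). Neither Cenpu nor Cenpw has whole reads in both libraries. On the opposite strand, Cenpu overlaps Primpol by 4414 bases, and Primpol had 763.6 and 881.9 reads. Cenpo likewise overlaps Adcy3 by 17522 bases and Ptrhd1 by 268, and Cenpq overlaps Mmut by 363. Ptrhd1 had 147.2 and 6 reads. Cenpl, at 1005 and 694 reads (0.770), and its partner Cenpn, at 84 and 109 (1.45, interval 1.08 to 1.95), were again on opposite sides.

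The outer kinetochore had the narrowest range of ratios among role groups of 4 members or more, with 6 of 6 members within 2-fold. Of all 10813 genes with 100 reads or more, 8550 were also within 2-fold. All 6 members have 500 reads or more, a depth at which only 6.63% of all genes were 2-fold lower and 4.44% higher. The group had a median log2 ratio of 0.05 and summed levels of 238.7 and 241.3 RPM. Ndc80 had 482 and 519 reads (1.20, interval 1.06 to 1.36), Nuf2 965 and 673.3 (0.778), Spc24 909.2 and 689.3 (0.845) and Spc25 264 and 240 (1.01, interval 0.847 to 1.21). These 4 proteins form the rod that grips microtubules. The kinetochore motor Cenpe, a kinesin-7, had 1413 and 1441 reads (1.14, interval 1.06 to 1.22), and the corona protein Cenpf 2190 and 2080 (1.06, interval 0.997 to 1.12). The centriole gene Cenpj, which shares the CENP name, had 218 and 173 reads (0.885), and Cenpv, which takes part in centromere organisation, 133 and 159 (1.33).

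Of the 6 spindle checkpoint genes, 5 had a ratio under 1 and 2 were 2-fold lower, against 54.5% and 12.0% of all genes. Cdc20, the target of the checkpoint, had 193 and 30 reads and was 5.77-fold lower (3.91 to 8.78), in a depth range where 32.5% of all genes were 2-fold lower. Ttk, the MPS1 kinase that starts the signal at unattached kinetochores, had 678 and 145 reads and was 4.19-fold lower (3.50 to 5.05), in a range where 20.1% were. These stood well apart from the rest of the group.

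Mad2l1, which encodes the MAD2 inhibitor of CDC20, had 1656 and 940 reads, a ratio of 0.633 (0.584 to 0.686). Bub1b, encoding BUBR1, had 1855 and 1276 (0.767), Bub3 1698 and 1300 (0.854), and Bub1, the kinase that recruits them, 1068 and 1024 (1.07, interval 0.980 to 1.17). The group summed to 274.2 and 201.7 RPM, a ratio of 0.735. The span of Cdc20 overlaps that of Elovl1 on the opposite strand by 53 bases, and Elovl1 had 854 and 397 reads.

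The chromosomal passenger complex held the only members that were 2-fold higher. Aurkb, its kinase, had 191 reads in the wild-type-host library and 456 in the other, 2.66-fold higher (2.24 to 3.17). Of all genes in its depth range, 12.9% were 2-fold higher. Cdca8 (borealin), which targets the complex to centromeres, had 50 and 154 reads, 3.43-fold higher (2.48 to 4.82) at a low depth, where 27.5% of all genes were 2-fold higher. Birc5 (survivin), its partner in targeting, had 112.6 and 141.2 reads, neither whole, a ratio of 1.40 (1.08 to 1.80). Incenp, the scaffold, had more reads than the others, 1082 and 775, and lay on the other side, at 0.799 (0.727 to 0.877). Cdca8 overlaps 9930104L06Rik on the opposite strand by 2264 bases, and strand handling is not given in the sources used here. That gene had 359 and 125 reads.

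Aurora A and its activators did not move together. Aurka, the kinase of spindle poles, had 120 and 9 reads, 11.96-fold lower (6.09 to 26.8) and the lowest ratio of all members with 100 reads or more. Tpx2, which activates it on spindle microtubules, had 1440 and 1294 reads, a ratio of 1.002 (0.929 to 1.08). Hmmr, a spindle-pole protein that works with TPX2, had 1803 and 708 reads and was 2.28-fold lower (2.09 to 2.50), on the deepest counts of the 12 lower members.

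The polo-like kinases ranged from 2-fold lower to higher. Plk1, the mitotic kinase, had 376 and 250 reads (0.741, interval 0.629 to 0.872), and Plk4, the master of centriole duplication, 2535 and 1363 (0.599, interval 0.561 to 0.641). The stress-responsive kinases split: Plk3 had 318 and 132 reads and was 2.16-fold lower (1.76 to 2.67), while Plk2 had 4438 and 5679 (1.43, interval 1.37 to 1.48). Plk3 and Kif2c are the closest members on a chromosome, 25675 bases apart on chromosome 4 of mm39.

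The common proliferation markers were near to equal or lower. Mki67, which encodes the Ki-67 antigen that coats mitotic chromosomes, had 4075 and 2659 reads, a ratio of 0.728 (0.693 to 0.764). Top2a, topoisomerase II alpha, had 15971 and 14921 reads, a ratio of 1.04 (1.02 to 1.07), on the deepest counts of any mitotic gene in the set. A comparison of proliferation between the libraries therefore gives another value with each marker.

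Levels of different members can be compared only per length. Whether reads in introns were counted is not known, so levels per exonic length may be too high for members with long introns. In reads per exonic kilobase (GENCODE M21) per 1000000 reads, Kif5b was at 82.9 and 69.7 and Top2a at 68.0 and 70.8, the highest pair of members in both libraries, and Plk2 was at 37.9 and 54.1. Kif2a was at 25.8 and 31.3 and Kif1c at 25.2 and 23.9. Among genes of mitosis and the centromere, Kif11 was at 18.1 and 15.1, Bub1b at 16.6 and 12.8, Mki67 at 15.5 and 11.3 and Cenpi at 14.6 and 14.7. Aurka, at 1.82 and 0.152, Cdca8, at 0.370 and 1.27, and Birc5, at 1.27 and 1.78, were at the low end of the set. The members with large differences were not all rare: Kif18b, at 5.51 in the wild-type-host library, and Ttk, at 5.29, were near the middle of the set.

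**Figure D4:**
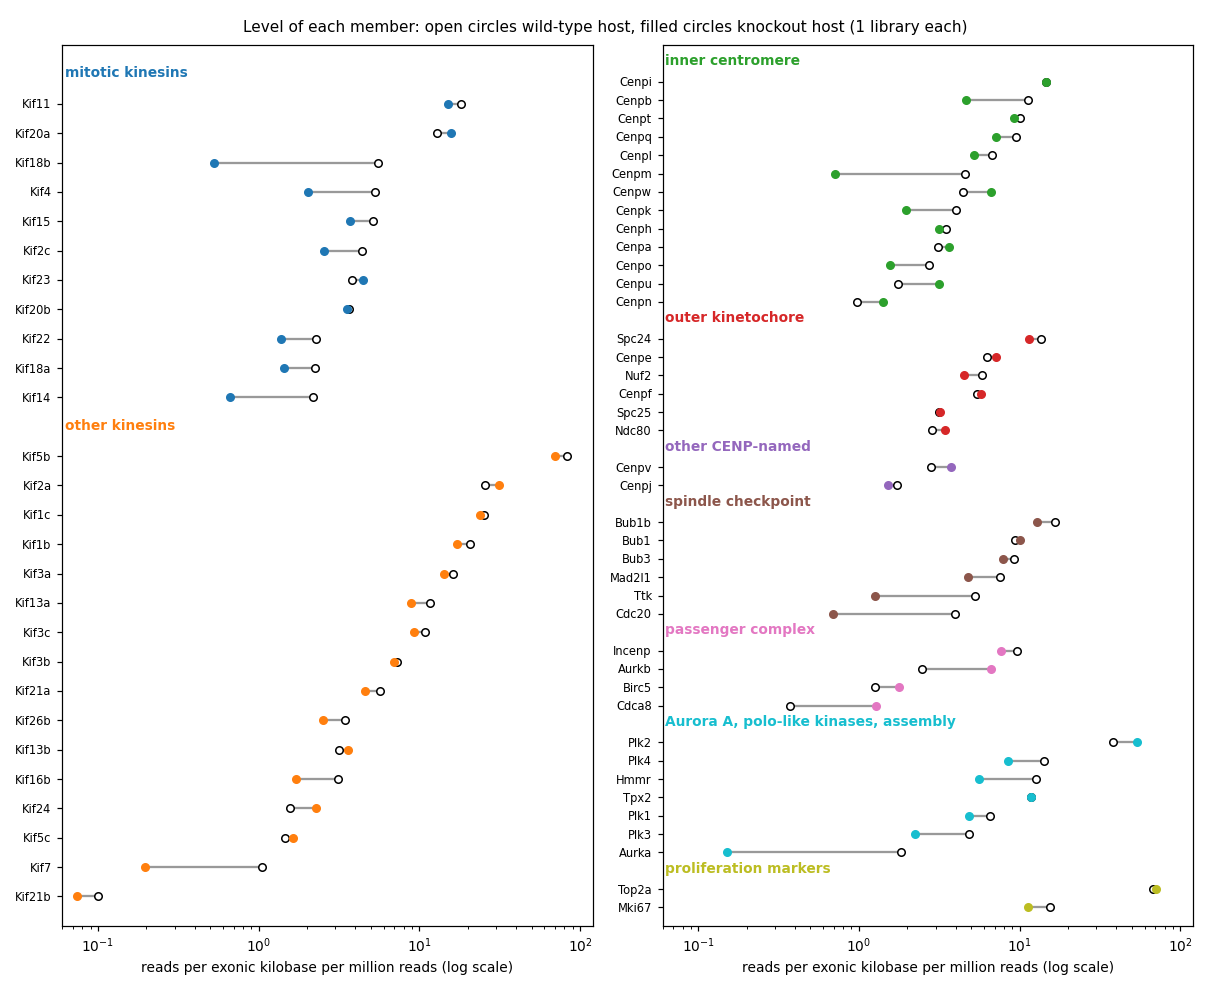
Reads per exonic kilobase per 1000000 reads (x axis, log scale) of each member in the wild-type-host library (open circles) and from the knockout host (filled circles), ordered by level within each role; Cenpp, listed at 0 in the first library, is not drawn. Kif5b and Top2a reach the highest levels, with their circles close together, and Aurka, Kif18b and Cenpm show the longest gaps.

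On the deposited log2(FPKM + 1) scale, little of this is visible. The deposited FPKM (fragments per kilobase, scaled to the library total) divides by the genomic span, which runs from 4452 to 410076 bases over the members, and 32 of the 68 were under 1 in both libraries. Only 32 members had a mean log2 value of 1 or more, and of these 1 was lower by 1 or more (3.12%) and 0 were higher, against 2.64% and 2.31% of the 6057 genes with such a mean. That gene was Cenpb, at FPKM 11.4 and 4.61, a log2 difference of -1.14. Cdc20 differed by -1.05, but with FPKM 1.66 and 0.288 its mean was under 1. Kif18b, at FPKM 1.004 and 0.0960, differed by -0.87 on that scale and by -3.39 in log2 of the read ratio.

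Genes of the same machinery outside the rule were read from 9 lists, of which 7 are given here. Their counts stand beside shares of 12.0% of all genes 2-fold lower, 8.90% higher and 54.5% below 0. In the Mis12 complex and centromere loading list, 2 of 12 genes with 100 reads or more were 2-fold higher and 2 lower. Knl1, the platform for BUB proteins, had 1117 and 401.2 reads (2.50-fold lower, interval 2.23 to 2.81), and Cenpx, a partner of the histone-fold CENP proteins, 122 and 1 (109-fold lower, interval 19.3 to 4357). Cenpx is at a low depth, 100 to under 300 reads, where 32.5% of all genes were 2-fold lower. Dsn1 and Pmf1, subunits of the Mis12 complex, had 404 and 769 reads and 102.6 and 219.5. In the list of attachment factors, 1 of 11 was higher and 1 lower: Mad2l1bp, at 55 and 178 reads, and Zw10, at 584 and 209.3.

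The anaphase-promoting complex list had 3 of 17 genes lower and 1 higher. Ube2s, the enzyme that extends its ubiquitin chains, had 1499 and 257.7 reads (5.22-fold lower, interval 4.56 to 5.97), and the subunits Cdc26 and Cdc23 had 880 and 255.2 and 2075 and 750.6. Neither Ube2s nor these subunits have whole reads in both libraries. Cohesin genes were even, with 1 of 14 2-fold higher: Sgo1 (shugoshin, which protects centromeric cohesin), at 265 and 522 reads.

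Condensin genes had 0 of 8 past 2-fold and 6 below 0, led by Ncapd2 at 3235 and 1672 reads and Ncapg at 2176 and 1125. Spindle-pole and nucleation genes had 19 of 24 below 0, 3 of them 2-fold lower, and a median log2 ratio of -0.33. These were Tubg1, at 131 and 45 reads, Tacc3, an Aurora A substrate, at 948 and 334, and Aspm, at 2718 and 1077. Of the mitotic entry list, 1 of 14 was higher (Lin9, at 286.5 and 621.4 reads) and 1 lower (Lin54, at 1248 and 519), both subunits of the MuvB complex that binds CHR elements. In this list 9 of the 14 lay below 0 and 5 above, with a median log2 ratio of -0.25. On the lower side, Ccna2 had 7677 and 3686 reads, Cdk1 785 and 474, and Foxm1, a transcription factor of the mitotic genes, 812 and 635. On the higher side, E2f8 had 342 and 527 reads and Cdc25c 392 and 566. Over all 9 lists, 8 of 118 genes were 2-fold higher and 11 lower, against the 8.90% and 12.0% of all genes given above, with a median of -0.12.

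The ratios were also read by promoter, without a test of the difference. The 30 with CHR letters had a median log2 ratio of -0.38, with 19 below 0, 8 that were 2-fold lower and 1 higher. The 29 without them that had 100 reads or more had a median of -0.23, with 21 below 0, 4 lower and 0 higher. The 8 members without a promoter entry belong to neither kind. Of these, 7 had 100 reads or more, with a median of 0.003, 3 below 0, 0 lower and 1 higher (Aurkb). Of all genes with that depth, 54.5% lay below 0, 12.0% were 2-fold lower and 8.90% higher. Aurka, Cdc20 and Cenpm of the first kind and Kif7 of the second had under 300 reads, where 32.5% of all genes were lower. Both kinds held low members, as the stretches of Cdc20 and Cenpm beside those of Cenpb and Kif7 show, and both held members near 1, such as Top2a and Cenpi.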

How the data were processed

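RNA of sorted CD45-negative tumour cells was sequenced as 1 library per host genotype. The authors deposited log2(FPKM + 1) values for 12707 genes. STAR 2.7.8a, Partek and the build mm39 appear in the submitters' processing notes, without a role for each; strand handling and the annotation release were not given in the sources used here. Deposited FPKM times span sums to 1000000 per library, so the span includes introns. Each library total was taken as the one that brings low values nearest to whole reads, and the recovered reads were not rounded. Under 1000 reads, 85.9% and 84.2% of values were whole within 0.1 read, and 48 of 68 members were whole in both libraries. RPM are recovered reads per 1000000 of their total. A member was counted at 2-fold or more with 100 reads or more over both libraries. No test was possible with 1 library per group. Intervals are 95% Clopper-Pearson. The recovery, interval and scaling steps were tested on simulated data. Members, lists and rules were chosen with earlier results of these data known. Every member could be named. Related genes were named by the largest ratios of their list, and some others were named beside them. Python 3.11.15, numpy 2.4.6, pandas 2.3.3 and scipy 1.17.1 were used. Coordinates of the table (mm39) and of the promoters (GRCm38.p6) were not mixed.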

Additional observations from a re-analysis of the deposited data

How the results depend on the processing

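The counts of 2-fold members depended on the depth asked for. With 500 reads or more, 7 of 53 members were 2-fold lower and 1 higher, against 6.63% and 4.44% of all genes; with 20 reads or more they were 12 of 67 and 2, against 15.3% and 13.9%. At 1.5-fold, 19 of 66 members were lower and 3 higher, against 21.4% and 16.1%. Scaling by the median of ratios or by the trimmed mean of M values added 0.06 and 0.05 to every log2 ratio, left 11 members lower and 2 higher, and moved Cenpk alone inside 2-fold. The median log2 ratio lay between -0.25 and -0.18 over these settings, but was -0.38 among the 47 members with whole reads. On the deposited scale, 1 member differed by 1 or more; it was 2 with 0.1 added, 0 with 5 added, 2 without the filter on the mean, and 1 after quantile normalization. No paired analysis was possible because each host genotype has 1 library, and for the same reason no library could be left out. Depth limits members under 300 reads most: Aurka, Cdca8, Cenpm, Kif7 and Cdc20 rest on them.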

Other observations

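A pair of lists of the same machinery remain. Among other kinesin motors, light chains and adaptors, 2 of 8 genes with 100 reads or more were 2-fold higher and none lower, against 8.90% and 12.0% of all genes, with a median log2 ratio of 0.60. Klc4, a light chain that links kinesin-1 to cargo, had 15 reads in the wild-type-host library and 150 in the other, 11.1-fold higher (95% counting interval 6.55 to 20.4) at a low depth, and Kifc3, a minus-end motor of cell junctions, had 363 and 764.4, 2.35-fold higher (2.07 to 2.67). Kifc1, the minus-end motor that clusters centrosomes, had 329.1 and 476.3 reads, and its near-identical copy Kifc5b 82.9 and 114.7, which leaves their shares uncertain. Klc1, the common light chain, was at 1378 and 949 reads and Kifap3, which links kinesin-2 to cargo, at 1869 and 1357.

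The median log2 ratio of cytokinesis genes was 0.10, and 1 of 10 table rows was 2-fold lower. Racgap1, which pairs with Kif23 in centralspindlin, had 3558 and 3651 reads, Ect2, which activates RhoA at the midzone, 3082 and 3042, and Anln 7188 and 6582. The lower row is 1 of 2 listed as Septin2, at 492.7 and 202.5 reads; the other had 21225 and 14604. Mybl2, a transcription factor that joins MuvB, was below the depth asked for, with 96 reads and 1 read, and Lin37 was listed at 98 reads and at 0.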
